A study of Mus musculus with 12 samples.

Results

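Chemokine and chemokine receptor genes were taken from the RefSeq table of the mouse genome (GRCm38.p6, the assembly of mm10) as all protein-coding genes whose symbol is Ccl, Cxcl, Ccr or Cxcr followed by a number. This gave 54 genes, 37 for ligands and 17 for receptors, of 21887 protein-coding genes on the chromosomes. The table lists 1 of them, Ccl21c, at chromosome 4, 59769 to 60899. Those coordinates lie before the lowest summit of any list on that chromosome, at 3051517, so Ccl21c was not counted, which left 53 genes, 36 for ligands and 17 for receptors. Chromatin accessibility around these genes was read from ATAC-seq of lumbar dorsal root ganglia, an assay in which a transposase cuts and tags open DNA. The 4 groups were Silc1-/- mice with an injured sciatic nerve, Silc1-/- mice after sham operation, wild-type mice with an injured sciatic nerve and wild-type mice after sham operation, with 3 libraries each. Silc1 is a long noncoding RNA gene. The injury was a crush at mid-thigh, made 2 times for 30 seconds, and each library was made from 6 ganglia. Purchased mice were C57black6 Ola HSD males and the other strains were bred in house. How the Silc1-/- allele was made, the age of the mice and the time from crush to dissection were not stated in the sources used here. Ganglia were lysed as tissue, so neurons, satellite glia, Schwann cells, vascular cells and immune cells all contributed, and fewer cells of a type cannot be told apart from less open chromatin per cell.

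Chemokines are small secreted proteins that steer migrating leukocytes by binding receptors that couple to inhibitory G proteins. CC ligands such as Ccl2 and Ccl3 act mainly on monocytes, macrophages and T cells, and CXC ligands with the Cxcl1 and Cxcl2 type of sequence act on neutrophils through Cxcr2. Several ligands and receptors lie side by side in the genome in tandem arrays. In injured nerves and their ganglia, glia, fibroblasts and immune cells are known sources of Ccl2, which draws in monocytes that carry Ccr2.

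For each group the authors deposited 1 list of summits, the positions of highest signal in called peaks, each with a score on a −log10 scale. The lists held 35815 summits for Silc1-/- injured, 48332 for Silc1-/- sham, 43841 for wild-type injured and 27279 for wild-type sham ganglia. With 1 list per group there is no spread between animals, no difference below was tested, and no p-value is given. Read depth is unknown, so counts are given as deposited and then scaled to the mean list length. Intervals are 95% intervals for counting error only. Of 12 sensory neuron markers, 6, 8, 6 and 5 had a summit within 1 kb of their start in Silc1-/- injured, Silc1-/- sham, wild-type injured and wild-type sham ganglia. On a list of this size those counts are not far from the shares of all coding genes, 47.6%, 53.0%, 54.1% and 48.4%, so they do not set the tissue apart. No T cell marker of 8 had one in any list.

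The promoters with a summit inside the window from 250 bases before to 50 bases after the start are shown for 6 genes, from RefSeq sequence of GRCm38.p6, 5′ to 3′ along the gene's strand. Windows were at hand for 39 of the 53 genes. Ccl25 (chr8:4324960-4325259, plus strand) and Ccl27a (chr4:41774127-41774426, minus strand) are shown because every list had a summit inside them. Ccr1 (chr9:123968643-123968942, minus strand) and Ccl6 (chr11:83593038-83593337, minus strand) are shown because the wild-type injured list alone had a summit inside them. Cxcr4 (chr1:128592250-128592549, minus strand) and Cxcl10 (chr5:92348840-92349139, minus strand), chosen after their values were seen, had a summit there in every list but Silc1-/- injured. Capitals mark matches, on either strand, to the NF-kB consensus, to GAAANNGAA (a core of interferon response elements), to TGANTCA (AP-1) or to GAGGAAGT (PU.1).
Ccl25: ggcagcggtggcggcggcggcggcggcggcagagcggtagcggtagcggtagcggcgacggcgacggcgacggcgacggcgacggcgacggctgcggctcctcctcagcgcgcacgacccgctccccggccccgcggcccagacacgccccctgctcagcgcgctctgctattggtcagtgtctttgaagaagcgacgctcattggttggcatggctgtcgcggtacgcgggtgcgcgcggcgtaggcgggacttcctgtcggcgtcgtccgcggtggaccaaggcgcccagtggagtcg
Ccl27a: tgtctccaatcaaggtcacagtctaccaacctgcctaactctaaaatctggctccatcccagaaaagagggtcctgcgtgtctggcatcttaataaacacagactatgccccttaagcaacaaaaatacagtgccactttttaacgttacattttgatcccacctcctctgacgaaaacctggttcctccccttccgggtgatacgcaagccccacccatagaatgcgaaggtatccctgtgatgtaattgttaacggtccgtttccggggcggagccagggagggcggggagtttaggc
Ccr1: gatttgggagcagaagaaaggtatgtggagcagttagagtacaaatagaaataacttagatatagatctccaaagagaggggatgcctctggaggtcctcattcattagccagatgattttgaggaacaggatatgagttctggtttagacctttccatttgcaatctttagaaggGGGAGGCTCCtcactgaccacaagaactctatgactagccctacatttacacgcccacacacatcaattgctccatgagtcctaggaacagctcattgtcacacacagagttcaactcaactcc
Ccl6: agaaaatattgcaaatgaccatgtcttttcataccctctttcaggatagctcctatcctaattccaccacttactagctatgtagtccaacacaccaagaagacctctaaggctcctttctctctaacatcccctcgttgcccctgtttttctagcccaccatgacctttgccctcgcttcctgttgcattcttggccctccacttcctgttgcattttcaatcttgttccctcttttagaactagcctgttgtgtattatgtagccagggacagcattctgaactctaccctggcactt
Cxcr4: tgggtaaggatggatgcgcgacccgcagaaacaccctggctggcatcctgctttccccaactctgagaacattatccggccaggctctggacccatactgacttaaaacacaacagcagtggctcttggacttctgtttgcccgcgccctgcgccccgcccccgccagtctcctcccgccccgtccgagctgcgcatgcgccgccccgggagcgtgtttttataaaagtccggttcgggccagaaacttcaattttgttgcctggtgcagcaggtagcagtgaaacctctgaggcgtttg
Cxcl10: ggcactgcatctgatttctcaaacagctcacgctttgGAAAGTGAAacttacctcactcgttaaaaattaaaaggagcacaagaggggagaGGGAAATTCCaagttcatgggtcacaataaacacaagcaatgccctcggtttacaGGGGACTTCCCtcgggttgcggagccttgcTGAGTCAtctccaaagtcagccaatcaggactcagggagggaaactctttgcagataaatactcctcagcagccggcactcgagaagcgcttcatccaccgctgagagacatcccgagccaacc

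In these 6 windows, matches were found in the Cxcl10 and Ccr1 promoters alone. The Cxcl10 window holds GAAAGTGAA at position -213 from the start, the NF-kB matches GGGAAATTCC and, overlapping each other, GGGGACTTCC and GGGACTTCCC, and the AP-1 match TGAGTCA at position -74. Ccr1 has the NF-kB match GGGAGGCTCC. Over all 21262 windows of coding genes on the chromosomes, 9.25% held an NF-kB match, 8.15% GAAANNGAA, 6.99% TGANTCA and 3.13% GAGGAAGT. Of the 46 windows of the chemokine system genes, some of which belong to the same gene, 23.9% held an NF-kB match, 17.4% GAAANNGAA, 21.7% TGANTCA and 2.17% GAGGAAGT. A match describes these letters and is not a bound site.

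The first question was whether injury or loss of Silc1 went with more or fewer accessible sites around the chemokine system as a whole. The 53 genes with 50 kb on each side formed 29 separate stretches of 4.09 Mb in all, called clusters here, of which 10 held more than 1 gene and 34 genes together. Each summit was counted once per cluster. The clusters held 74 summits in Silc1-/- injured (exact Poisson interval 58.1 to 92.9), 106 in Silc1-/- sham (86.8 to 128.2), 137 in wild-type injured (115 to 162) and 72 in wild-type sham ganglia (56.3 to 90.7). These were 0.207% (Wilson interval 0.165 to 0.259), 0.219% (0.181 to 0.265), 0.312% (0.264 to 0.369) and 0.264% (0.210 to 0.332) of the lists in the same order. The wild-type injured list was the highest on both scales, and the 2 Silc1-/- lists were the lowest as shares.

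**Figure D1:**
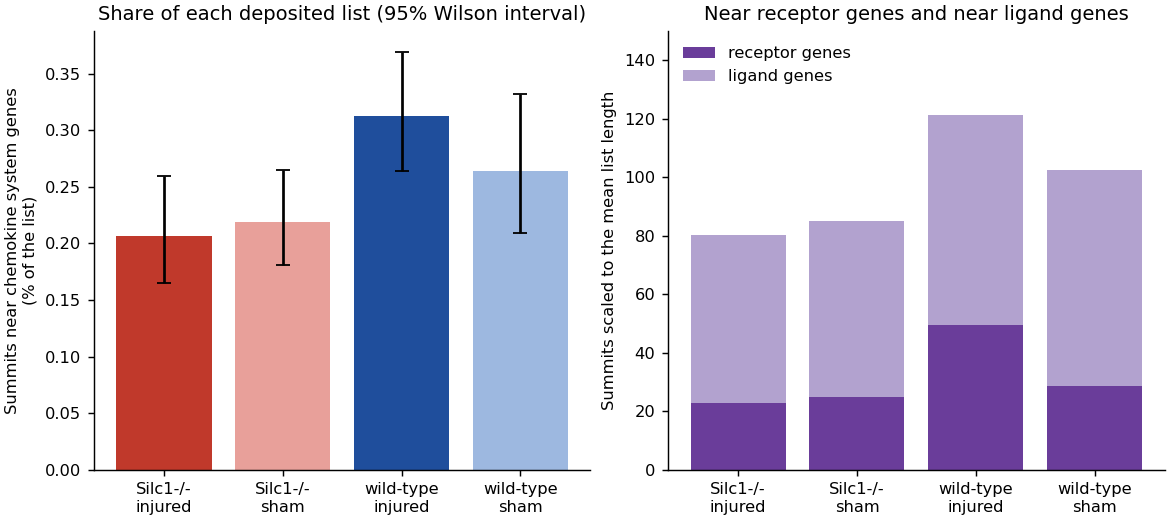
Left, share of each deposited list that lies within 50 kb of a chemokine or chemokine receptor gene (percent, 95% Wilson interval for counting error, 1 list of 3 libraries per bar). Right, the same summits scaled to the mean list length, stacked by receptor and ligand genes; receptor genes account for 49.6 scaled summits in wild-type injured and for 22.8 to 28.5 in the other lists.

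Scaled to list length, Silc1-/- injured ganglia had 0.661 times the summits of wild-type injured ganglia around these genes (interval 0.491 to 0.884). The ratio of Silc1-/- sham to wild-type sham was 0.831 (0.610 to 1.14). For injury the ratio of injured to sham was 1.18 in wild type (0.884 to 1.60) and 0.942 in Silc1-/- (0.690 to 1.28). Only the comparison between the injured lists had an interval that left out 1, and that interval holds no variation between animals. Per Mb, the clusters held 18.1, 25.9, 33.5 and 17.6 summits in Silc1-/- injured, Silc1-/- sham, wild-type injured and wild-type sham, against 17.3, 23.8, 22.0 and 13.7 in the 1682 Mb of windows of all coding genes. Scores within the clusters had medians of 4.45, 4.97, 5.92 and 5.41 in that order, against 4.77, 4.97, 5.72 and 6.33 over the whole lists.

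Receptor and ligand genes were then counted apart. The 11 receptor clusters held 21 summits in Silc1-/- injured, 31 in Silc1-/- sham, 56 in wild-type injured and 20 in wild-type sham ganglia. The wild-type injured count stood apart from the other 3. The scaled ratio was 1.74 for injury in wild type (1.03 to 3.07), 0.914 for injury in Silc1-/- (0.499 to 1.64) and 0.459 for Silc1-/- against wild type after injury (0.264 to 0.770). The 18 ligand clusters held 53, 75, 81 and 52 summits in the same order of groups, with ratios of 0.969 for injury in wild type (0.676 to 1.40) and 0.801 between the injured lists (0.556 to 1.15). Whether receptors and ligands differ was not tested. Above a score floor of 10, receptor clusters held 7 summits in Silc1-/- injured and 11 in wild-type injured. The scaled ratio there was 1.04, so the lower share in Silc1-/- was not seen at that floor. These counts are too small to tell whether it was lost. At a floor of 5 the ratio was 0.454 (10 summits against 31), and with lists of equal length it was 0.531 (17 against 32).

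Many summits in these windows belong to neighbours. Within 1 kb of an end of a coding gene that is not a chemokine system gene lay 33 summits in Silc1-/- injured, 33 in Silc1-/- sham, 40 in wild-type injured and 29 in wild-type sham ganglia. Away from such ends lay 41, 73, 97 and 43. The scaled ratio between the injured lists, Silc1-/- over wild type, was 1.01 at neighbours' ends (0.617 to 1.64) and 0.517 away from them (0.350 to 0.753). For injury in wild type it was 0.858 at neighbours' ends (0.519 to 1.44) and 1.40 away from them (0.971 to 2.06). Inside a chemokine system gene or within 1 kb of it lay 12, 18, 30 and 10 summits, and here the ratio between the injured lists was 0.490 (0.228 to 0.985).

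Called genes were those whose scaled window counts, with 1 added, differed by over 1.5-fold. For injury in wild type, 23 of 53 genes (43.4%) were higher and 1 was lower, against 16.8% higher and 10.2% lower among all 21775 coding genes placed on the chromosomes. In Silc1-/- ganglia 6 were higher after injury and 14 (26.4%) were lower, against 13.2% and 14.8% of all coding genes. Between the injured lists, 4 were higher in Silc1-/- and 25 (47.2%) were lower, against 12.6% and 16.2%. Between the sham lists, 10 were higher in Silc1-/- and 8 were lower, shares of 18.9% and 15.1%, against 15.3% and 18.4%. The median log2 ratios over the 53 genes were 0.45, 0, -0.52 and 0 for injury in wild type, injury in Silc1-/-, genotype after injury and genotype in sham. Over all coding genes they were -0.01, 0, 0 and -0.07. The share higher after injury in wild type and the share lower in Silc1-/- than in wild type after injury were thus well above the background. The sham comparison was close to it. At a score floor of 10 the first share was 26.4%, against 14.4% of all coding genes. The second was 18.9% there, against 20.7%, so it was not raised among high-scoring summits. The share lower after injury within Silc1-/- was above the background as well, but was 11.3% against 17.8% at a score floor of 10. Injury in wild type and genotype after injury use the same wild-type injured list. Genotype after injury and injury in Silc1-/- use the same Silc1-/- injured list.

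**Figure D2:**
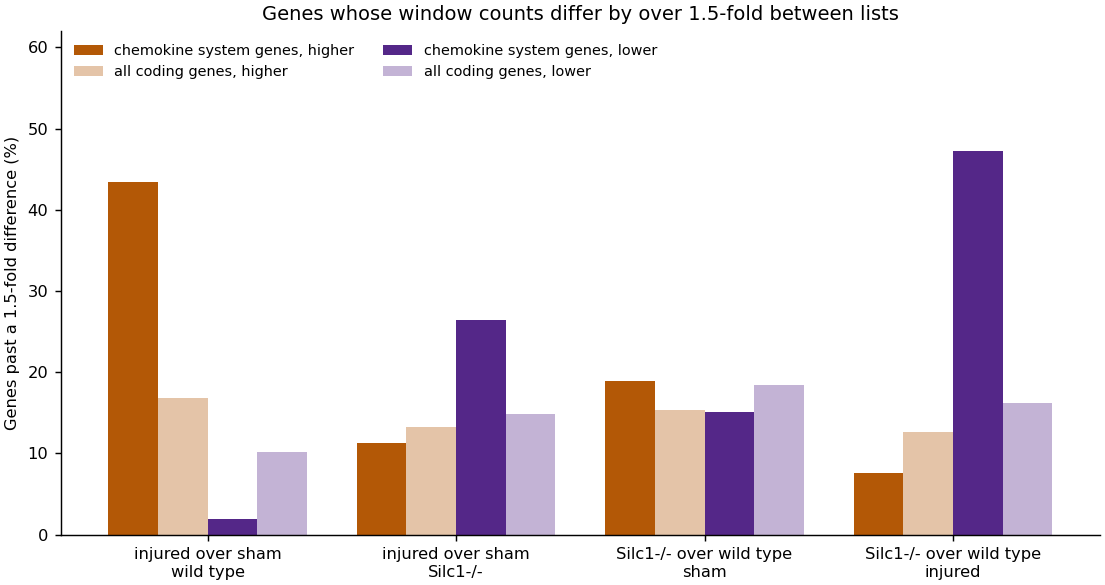
Percent of the 53 chemokine system genes (dark bars) and of 21775 coding genes (pale bars) whose scaled summit counts within 50 kb differed by over 1.5-fold, for 4 comparisons of 1 list with 1 list. The dark bars stand at 43.4% for genes higher after injury in wild type and at 47.2% for genes lower in Silc1-/- than in wild type after injury.

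These calls rest on few summits and on shared ones. The 23 genes higher after injury in wild type lie in 13 clusters, 13 of them had no summit in the sham list, and 7, such as Ccl1, Ccl19 and Ccr4, differ by 1 summit. The 25 genes lower in Silc1-/- after injury lie in 14 clusters, and 5 differ by 1 summit. Among genes with 5 to 20 summits over the 4 lists, a range chosen after the data were seen, 14 of 31 were higher after injury in wild type (45.2%, against 20.3% of 10967 coding genes), and 16 of 31 were lower in Silc1-/- after injury (51.6%, against 16.9%). The sum includes the lists compared, so a gene can enter this range through its higher list, and these shares add no support.

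Of the receptor clusters, the Ccr1 array had the largest count in wild-type injured ganglia. This array on chromosome 9 includes Ccr1, Ccr1l1, Ccr3 and Ccr2, receptors of monocytes, macrophages, eosinophils and T cells for ligands such as Ccl2, Ccl3, Ccl5 and Ccl11. Its cluster had 1 summit in Silc1-/- injured, 3 in Silc1-/- sham, 10 in wild-type injured and 1 in wild-type sham ganglia. The log2 ratio of scaled counts was 2.02 for injury in wild type, -0.71 for injury in Silc1-/-, 0.49 for genotype in sham and -2.24 for genotype after injury. Every list had a tall summit in intergenic sequence 37288 to 37616 bases below Ccr1, scored 83.2, 70.2, 62.7 and 71.4 in the order of groups above. The wild-type injured summit of that site lay at 123924838, 322 bases from the nearest of the others, which lay at 123924510 to 123924516, so a joining distance of 200 bases counted it apart. The other 9 wild-type injured summits had scores of 2.50 to 7.44. These included 1 at the Ccr1 start shown above, 17 bases inside the gene and scored 5.92, and 1 at 123986320 inside Ccr1l1, scored 5.92. Silc1-/- sham had 1 inside Ccr1l1 as well, at 123986333 (4.29), and 1 beyond it at 123992172 (1.87), and neither Silc1-/- injured nor wild-type sham had any besides the tall site.

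By gene, Ccr1 had 1, 3, 8 and 1 summits within 50 kb in Silc1-/- injured, Silc1-/- sham, wild-type injured and wild-type sham. Ccr1l1, a Ccr1-like receptor gene next to it, had 0, 2, 6 and 0, and Ccr3, the eotaxin receptor of eosinophils, had 0, 2, 3 and 0. The log2 ratios between the injured lists, Silc1-/- over wild type, were -1.96 for Ccr1, -2.66 for Ccr1l1 and -1.87 for Ccr3, values that the added pseudocount sets where a list is at 0. Ccr2, the Ccl2 receptor of inflammatory monocytes, had a single summit, in the wild-type injured list, and none in the others. With scores of at least 10, 1 summit of the whole array was left in every list, the tall site, and the log2 ratio between the injured lists was then 0.36.

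Cxcr2 and Cxcr1, receptors of neutrophils for the Cxcl1, Cxcl2 and Cxcl5 ligands, form a cluster on chromosome 1 (chr1:74103994-74244708). The cluster had 3 summits in Silc1-/- injured, 7 in Silc1-/- sham, 8 in wild-type injured and 3 in wild-type sham. Within 50 kb of Cxcr2 alone the counts were 1, 5, 5 and 1, and within 50 kb of Cxcr1 they were 3, 7, 7 and 3. Injured exceeded sham in wild type and the reverse held in Silc1-/-, with log2 ratios for Cxcr2 of 1.16 in wild type and -1.27 in Silc1-/-. Between genotypes the log2 ratio for Cxcr2 was 1.05 in sham and -1.38 after injury. The summit common to every list near Cxcr2 lay 4.5 to 4.7 kb below it, with scores of 3.09, 1.87, 3.90 and 4.20. Inside Cxcr2, Silc1-/- sham had a summit at 74155607 (score 4.29) and wild-type injured at 74155736 (2.60), and beyond it those lists had summits at 74167391 (4.29) and 74167287 (10.7). Silc1-/- injured and wild-type sham had none at either place. The tallest summits of the cluster, scored 9.86, 21.3, 51.1 and 22.7, sat within 88 bases of an end of Arpc2, a subunit gene of the actin-branching Arp2/3 complex.

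**Figure D3:**
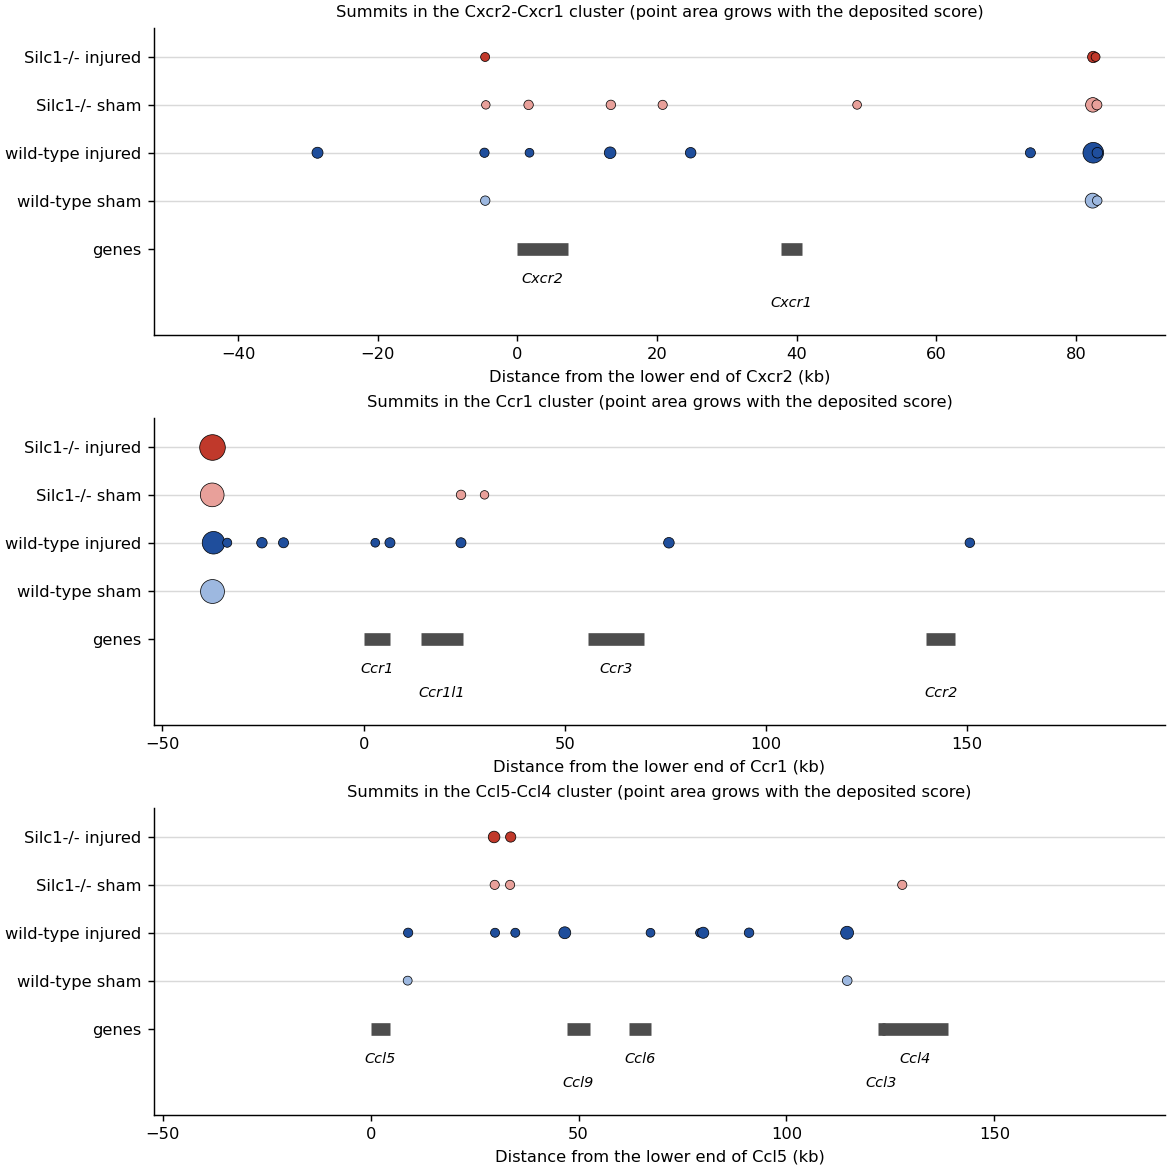
Summits of the 4 lists in 3 clusters against distance in kb from the lower end of Cxcr2, Ccr1 or Ccl5; each point is 1 deposited summit, some overlapping, its area grows with its score, and grey bars are genes of the cluster. The wild-type injured row has 8, 10 and 9 points in the 3 clusters, against 3, 1 and 2 in the Silc1-/- injured row and 3, 1 and 2 in the wild-type sham row.

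Cxcr4, the receptor of Cxcl12 on leukocytes, progenitors and many neural cells, had 1 summit in Silc1-/- injured, 3 in Silc1-/- sham, 7 in wild-type injured and 4 in wild-type sham ganglia. All lists had a summit inside the gene 1262 to 1402 bases from its start, scored 4.504, 2.98, 3.39 and 3.91, and it was the only one in Silc1-/- injured. At the start shown above, the other lists had summits 128 bases before it (Silc1-/- sham, score 3.00), 20 bases after it (wild-type injured, 12.02) and 14 bases after it (wild-type sham, 2.41). Each of these 3 lists had a further summit 366 to 380 bases before the start. The log2 ratio was -1.79 for genotype after injury and -0.97 for genotype in sham, which turned to 0.92 among summits scored 5 or more. Cxcr5, the Cxcl13 receptor of B cells and follicular T cells, had 1, 4, 7 and 3 summits in the same order, and a log2 ratio of -1.79 for genotype after injury. No injured list had a summit scored 10 or more there. Of its 7 wild-type injured summits, 4 were in no other list, with scores of 1.88 to 2.57.

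Ccr8, a receptor of regulatory T cells whose window reaches Cx3cr1, Slc25a38 and Rpsa, had 7 summits in Silc1-/- injured, 4 in Silc1-/- sham, 8 in wild-type injured and 4 in wild-type sham. It was the receptor with the largest count in Silc1-/- injured, and its log2 ratio for injury was 1.03 in Silc1-/- and 0.27 in wild type. Ccr10, the Ccl27 and Ccl28 receptor of skin- and mucosa-homing lymphocytes, had 3, 4, 6 and 2, nearly all at the ends of neighbouring genes. Ccr6, the Ccl20 receptor, had 2, 2, 5 and 1, and Ccr7, which guides dendritic cells and T cells to lymph nodes, had 0, 2, 2 and 0. Ccr9 and Cxcr6 shared a cluster with 2 summits in every list, 1 within 50 kb of each gene, at the ends of other genes. Ccr4 had 1 summit, in wild-type injured, and Cxcr3, the receptor of Cxcl9 and Cxcl10, had 1, in Silc1-/- injured, at an end of another gene.

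Among inflammatory CC ligands, the array of Ccl5, Ccl9, Ccl6, Ccl3 and Ccl4 on chromosome 11 (chr11:83475778-83714683) holds ligands that draw monocytes, macrophages and T cells, in part through Ccr1. The array had 2 summits in Silc1-/- injured, 3 in Silc1-/- sham, 9 in wild-type injured and 2 in wild-type sham. The log2 ratios were 1.22 for injury in wild type, -0.11 for injury in Silc1-/-, -0.17 for genotype in sham and -1.501 for genotype after injury. All 9 wild-type injured summits lay over 1 kb from the ends of other coding genes. The tallest, scored 15.2, lay 7499 bases from Ccl3 and had a wild-type sham counterpart scored 4.89. Others lay 445 bases from Ccl9 (11.6), 12666 bases from Ccl6 (9.05) and at the Ccl6 start shown above, 2 bases inside the gene (2.57). The pair of Silc1-/- injured summits, scored 10.6 and 6.55, lay 17445 and 13453 bases from Ccl9, and Silc1-/- sham had its own at 17295 and 13602 bases.

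By gene, Ccl9 and Ccl6 each had 2 summits within 50 kb in Silc1-/- injured, 2 in Silc1-/- sham, 8 in wild-type injured and 1 in wild-type sham, nearly all of them shared by the neighbours. Ccl3 and Ccl4, macrophage inflammatory proteins, each had 0, 1, 4 and 1, the same summits for both, and Ccl5 had 2, 2, 4 and 1. The differences of this array depended on the settings. For genotype after injury the log2 ratio was -0.07 at a score floor of 5 (2 summits against 3), -0.17 at a floor of 10 (1 against 2) and -0.74 with lists of equal length. For injury in wild type it was 0.24 with windows of 10 kb (4 summits against 2) and 0.47 with windows of 100 kb (16 against 7). For injury in Silc1-/- it was 1.72 at a floor of 5 and 1.58 with equal lists, both on 2 summits against 0.

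The array of Ccl2, Ccl7, Ccl11, Ccl12, Ccl8 and Ccl1, which holds the main monocyte attractants, had 3 summits in Silc1-/- injured, 5 in Silc1-/- sham, 4 in wild-type injured and 2 in wild-type sham, with log2 ratios of 0.24 for injury in wild type and -0.10 for genotype after injury. A summit 2495 bases from Ccl2 was in every list, with scores of 7.31, 7.75, 6.67 and 5.59. At an end of Ccl2 itself, within 76 bases, lay summits of Silc1-/- injured (8.10), Silc1-/- sham (9.40) and wild-type injured (7.44), and none of wild-type sham. At an end of Ccl7, within 72 bases, lay summits of Silc1-/- sham (3.63), wild-type injured (5.92) and wild-type sham (6.33), and none of Silc1-/- injured. Within 50 kb, Ccl2 and Ccl7 each had 2, 4, 3 and 2 summits, Ccl11, an eotaxin, had 2, 3, 3 and 2, and Ccl1 had 1, 1, 1 and 0. Ccl8 and Ccl12 had none in any list.

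Neutrophil-attracting CXC ligands lie in an array on chromosome 5 with Cxcl5, Cxcl3, Cxcl15, Cxcl1 and Cxcl2. This cluster had 5 summits in Silc1-/- injured, 5 in Silc1-/- sham, 7 in wild-type injured and 4 in wild-type sham, and its log2 ratio was 0.11 for injury in wild type and -0.17 for genotype after injury. Cxcl1 had 2, 3, 5 and 2 and Cxcl2 had 2, 4, 5 and 2, with log2 ratios of -0.78 for genotype after injury for each. The promoter side of Cxcl2 had summits 269 bases before the start in Silc1-/- injured (score 3.73), 266 in Silc1-/- sham (3.01) and 323 in wild-type injured (6.67), and none in wild-type sham. Cxcl3 had 3, 1, 2 and 1 and Cxcl15 3, 1, 1 and 1, and these 2 genes were higher in Silc1-/- injured than in wild-type injured by log2 ratios of 0.62 and 1.17. Their windows share a tall site 25527 bases from Cxcl15, scored 50.9 in Silc1-/- injured, 46.5 in Silc1-/- sham and 37.6 in wild-type injured, and wild-type sham had a summit scored 24.6 at 25043 bases. Cxcl5 had 0, 0, 1 and 1.

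Cxcl9 and Cxcl10, interferon-induced ligands of Cxcr3 of which Cxcl10 lies inside the larger gene Art3, had a cluster with 3 summits in Silc1-/- injured, 10 in Silc1-/- sham, 9 in wild-type injured and 7 in wild-type sham. Silc1-/- injured was the low list, with log2 ratios of -1.09 against Silc1-/- sham and -1.08 against wild-type injured. By gene the counts were 2, 7, 7 and 5 for Cxcl9 and 2, 9, 8 and 6 for Cxcl10. The summit at the Cxcl10 promoter shown above lay 45 to 46 bases before the start in Silc1-/- sham (score 4.29), wild-type injured (5.02) and wild-type sham (4.89). It fell between the AP-1 match and the start. Silc1-/- injured had no summit there. Its 3 summits were 1 inside Art3, in every list, and 1 each at the ends of Naaa and Sdad1, also in every list.

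**Figure D4:**
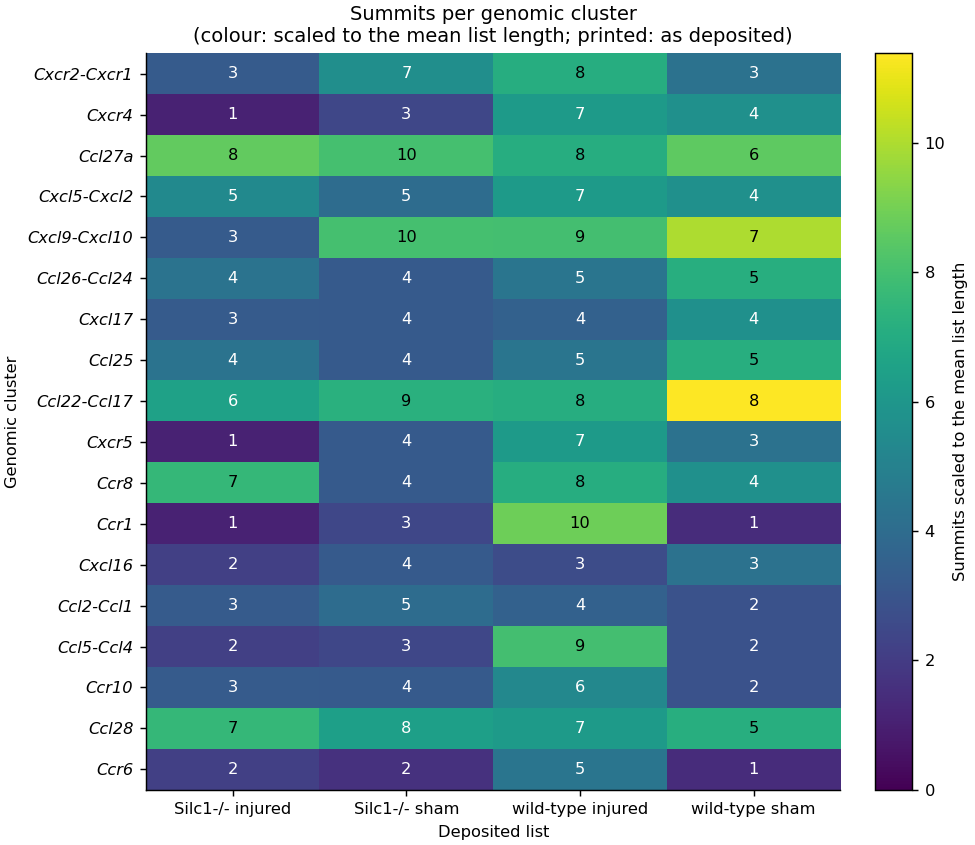
Summits in the 18 clusters with at least 10 summits over the 4 lists; rows are clusters in chromosome order, columns are the 4 lists, the printed number is the count as deposited, and the colour is the count scaled to the mean list length. The Ccr1 row reads 1, 3, 10 and 1, and the Ccl27a row reads 8, 10, 8 and 6.

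Ccl27a, a skin ligand of Ccr10, had the most summits of any cluster, 8 in Silc1-/- injured, 10 in Silc1-/- sham, 8 in wild-type injured and 6 in wild-type sham, of which 6, 6, 6 and 4 were at the ends of other coding genes. Its promoter shown above had a summit in every list, with scores of 3.37, 5.49, 3.95 and 4.82, and a further site 458 to 473 bases from the nearer listed start scored 5.24, 7.69, 11.7 and 7.72. Ccl28, a mucosal ligand of Ccr10 and Ccr3, had 7, 8, 7 and 5. Its window includes the tallest site near any of these genes, inside Tmem267, scored 814.4, 776.1, 737.1 and 610.7. Ccl25, the thymic and gut ligand of Ccr9, had 4, 4, 5 and 5, with a promoter summit scored 25.4, 29.5, 67.5 and 51.9. That summit lies 24 bases from an end of Elavl1, so it cannot be assigned to Ccl25. The pair Ccl26 and Ccl24, eotaxins, had 4, 4, 5 and 5, Cxcl17 had 3, 4, 4 and 4, and Cxcl16, the ligand of Cxcr6, had 2, 4, 3 and 3. Ccl22 and Ccl17, ligands of Ccr4, shared a cluster with 6, 9, 8 and 8, and Ccl22, at 4, 5, 5 and 6, was the gene with a lower call after injury in wild type, on a difference of 1 summit. Ccl17 had 3, 6, 5 and 4.

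Of the remaining ligands, Cxcl12, the Cxcr4 ligand of stroma and endothelium, had 2 summits in Silc1-/- injured, 2 in Silc1-/- sham, 1 in wild-type injured and 0 in wild-type sham. A site 1501 bases before its start was in both Silc1-/- lists alone, with scores of 5.08 and 9.55, and Silc1-/- sham also had a summit 98 bases inside the gene (4.29). Cxcl14 had 1, 2, 3 and 0. Ccl21a, Ccl21b, Ccl21d, Ccl27b and Ccl19 lie in a region of near-identical gene copies on chromosome 4, where reads may be split or lost between copies, so their counts are uncertain. Ccl21d had 0, 1, 2 and 0, Ccl21b had 1, 2, 3 and 1, Ccl21a had 1, 0, 1 and 0, Ccl27b had 1, 1, 2 and 0, and Ccl19 had 0, 0, 1 and 0. Ccl20 had 1 summit, in Silc1-/- sham, and Cxcl13 had none in any list.

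Open promoters were uncommon in this gene family. A summit within 1 kb of the start was found for 6 of 53 genes in Silc1-/- injured (11.3%, Wilson interval 5.29 to 22.6), 10 in Silc1-/- sham (18.9%, 10.6 to 31.4), 13 in wild-type injured (24.5%, 14.9 to 37.6) and 6 in wild-type sham (11.3%, 5.29 to 22.6). Each share was below that of all coding genes, 47.6%, 53.0%, 54.1% and 48.4% in the same order. Over the 4 lists together 14 of the 53 genes had such a summit, and Ccr10, Ccl27a and Ccl25 had it in every list. Of all coding genes, 58.4% had one in any list and 43.0% had one in every list. For 14 of the 53 genes no strand was at hand and either gene end was taken, which includes Ccr10, Ccl2, Ccl7 and Ccl26. Of those 4, Ccr10 had its summits at 803 to 974 bases, near the ends of other genes. Ccl26 had summits at 702 bases in Silc1-/- injured and 538 in wild-type injured. Ccl6, Ccr1 and Ccl27b had such a summit in wild-type injured alone, Cxcl12 in Silc1-/- sham alone, and Ccr1l1 in these 2 lists, 382 and 395 bases inside the gene in Silc1-/- sham and wild-type injured. Scores at these starts were at most 12.02 outside Ccl25.

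**Figure D5:**
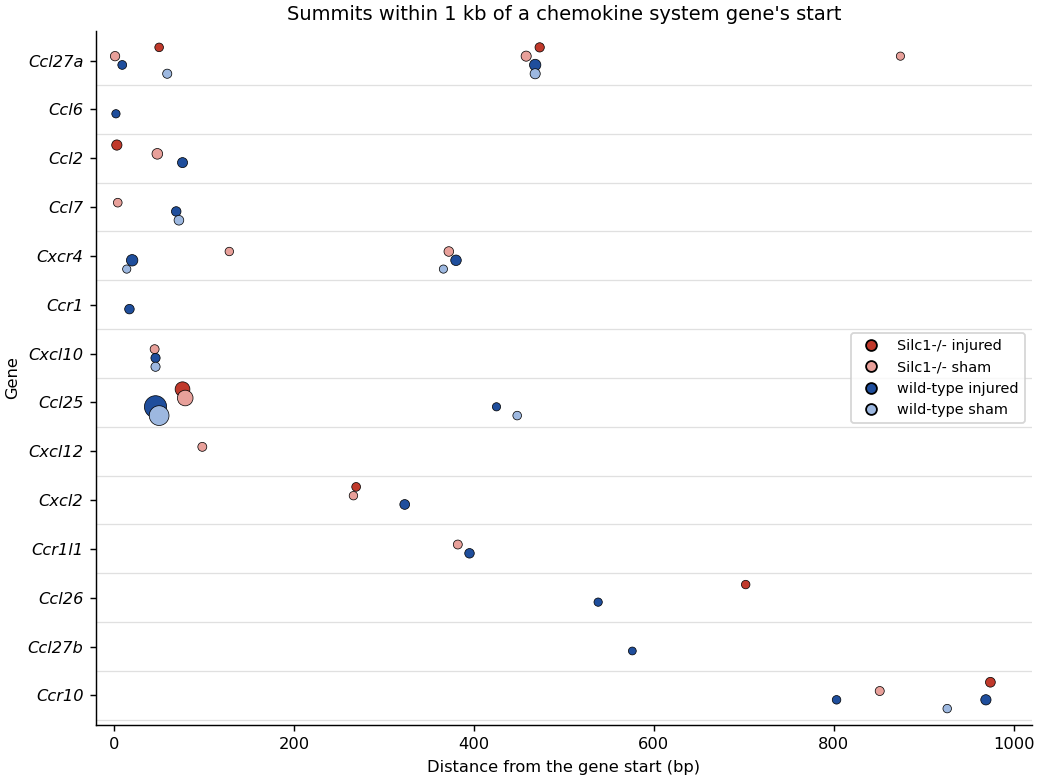
Distance in bases from the nearest listed start (either gene end where strand was not at hand) of every summit within 1 kb of the start of the 14 genes that have one; rows are genes, colours are the 4 lists, and point area grows with the score. The Ccl6 and Ccr1 rows hold a wild-type injured point alone, at 2 and 17 bases.

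Sharing between lists was read from loci, made by joining summits less than 200 bases apart. The clusters held 194 loci of 78381 in all. Of these, 50 were in wild-type injured alone (25.8%, Wilson interval 20.1 to 32.4), against 16.01% of all loci. The other lists alone had 14 for Silc1-/- injured (7.22%, against 10.8% of all loci), 25 for Silc1-/- sham (12.9%, against 21.1%) and 7 for wild-type sham (3.61%, against 4.45%). All 4 lists shared 35 (18.04%, against 18.3%), both injured lists alone 4 (2.06%, against 2.72%) and both sham lists alone 3 (1.55%, against 1.51%). Both Silc1-/- lists alone shared 5 (2.58%, against 4.38%) and both wild-type lists alone 9 (4.64%, against 2.38%). Silc1-/- sham and wild-type injured, which differ in both genotype and treatment, shared 15 alone (7.73%, against 6.05%).

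The 50 loci of wild-type injured alone spread over 20 of the 29 clusters. Their scores ran from 1.38 to 737.1 with a median of 4.49, and 23 reached 5 and 4 reached 10. Of the 50, 28 lay between genes, 10 in or within 1 kb of a chemokine system gene, 7 at the end of another coding gene and 5 inside another gene. Another list had a summit within 1 kb of 9 of them, and the median distance to a summit of another list was 14332 bases. The 3 with the highest scores were in Tmem267 near Ccl28, at 119599035 (737.1), below Ccr1 (62.7) and near the end of Hip1 in the Ccl26 cluster (53.6). Another list had a summit 399, 322 and 204 bases from these 3, so the joining distance, and not the absence of a site in other lists, set their class.

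Of the 35 loci joined over all 4 lists, the 5 with the highest lowest score lay at the ends of neighbouring genes. The Tmem267 site and the site below Ccr1, with scores of at least 610.7 and 62.7 in every list, are not among them because the joining distance split them. The 5 were at Hmgcs1 in the Ccl28 cluster, with scores of 32.4, 54.4, 72.7 and 48.2, at Elavl1 and Ccl25 as above, and at Med11 in the Cxcl16 cluster, with 24.1, 34.8, 37.2 and 24.9. Next came Arrb2, an arrestin gene in the Cxcl16 cluster, with 19.7, 29.6, 30.1 and 26.5, and Lztfl1 in the Ccr9 cluster, with 21.0, 19.6, 24.3 and 21.5. The 4 loci in both injured lists alone were 32600 bases from Ccl25 (scores 5.80 in Silc1-/- and 3.18 in wild type), in Ccl1 (3.05 and 5.65), in Ccl26 (3.09 and 2.57) and in Cxcl12 (4.39 and 1.99). The 3 in both sham lists alone were 22598 bases from Cxcl10 (5.73 and 3.97), 13903 bases from Ccl25 (6.40 and 3.54) and 11755 bases from Cxcl17 (4.14 and 2.71). Of loci shared by the wild-type lists alone, the top one by its lower score lay in Polr2c in the Ccl17 cluster (12.7 in injured and 6.44 in sham), followed by 1 in Art3 26609 bases from Cxcl10 (6.67 and 5.59), the site near Ccl3 and a site 22700 bases from Cxcr4 (5.91 and 4.89). The fifth was in Hip1 near Ccl26 (11.6 and 4.76). In both Silc1-/- lists alone, after the Cxcl12 site, came sites 6286 bases from Ccl21b (3.73 in injured and 4.97 in sham), 13453 bases from Ccl9 (6.55 and 3.63), 31060 bases from Ccl27b (3.09 and 4.29) and in Hip1 (5.08 and 2.41). Of loci in Silc1-/- injured alone, the highest scores were 5.08 near Ccr8, 4.39 near Ccl25 and 4.13 near Ccr6. In Silc1-/- sham alone they were 6.71 near Ccl1 and 5.67 near Ccr7 and Ccr10, and in wild-type sham alone 24.6 near Cxcl15, 6.33 near Ccl25 and 3.36 near Ccl26.

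Other genes of the same system were counted in the same way. The shares of all coding genes to set beside these calls are 16.8% higher and 10.2% lower for injury in wild type, 13.2% and 14.8% for injury in Silc1-/-, 15.3% and 18.4% for genotype in sham, and 12.6% and 16.2% for genotype after injury. On lists of 13 to 21 genes a share moves by several percent with 1 gene. Of 13 further chemokine system genes, which include atypical receptors that take up chemokines, the fractalkine pair Cx3cl1 and Cx3cr1 and the platelet ligands Pf4 and Ppbp, 6 were higher and 1 was lower after injury in wild type, and 6 were higher and 1 was lower after injury in Silc1-/-. Between the injured lists 6 were higher and 1 was lower in Silc1-/-, and in sham 2 were higher and 2 lower. The windows of Pf4 and Ppbp overlap the Cxcl5 array, and that of Cx3cr1 overlaps the Ccr8 window. That of Cx3cl1 overlaps the cluster of Ccl22 and Ccl17, and that of Xcr1 the cluster of Ccr9 and Cxcr6. Some of these summits were thus counted above. Ackr2, a scavenger of CC ligands, was lower after injury in wild type by a log2 ratio of -1.07, with 5 summits in Silc1-/- injured, 6 in Silc1-/- sham, 4 in wild-type injured and 6 in wild-type sham. Ccrl2, a non-signalling receptor of chemerin, had 0, 1, 4 and 0, Cx3cr1 had 7, 4, 8 and 3, and Ackr3, the second Cxcl12 receptor, had 2, 0, 1 and 0. Of 20 genes that act downstream of chemokine receptors, 8 were higher and 1 was lower after injury in wild type. In Silc1-/- ganglia 1 was higher and 3 were lower after injury. Between the injured lists 0 were higher and 6 lower in Silc1-/-, and in sham 6 were higher and 2 lower. Elmo1, which links receptors to Rac activation, had 7, 14, 18 and 4 summits, Rac2, the Rac protein of blood cells, 3, 2, 11 and 4, and Ptk2b 4, 10, 13 and 5. They are the extremes and not typical of the list. Their log2 ratios for genotype after injury, -0.98, -1.34 and -1.23, were the lowest of the 20, against a median of -0.36. Only Dock2 (0.40) and Grk3 (0.14) went the other way. Of 21 regulators of inflammation, 3 were higher, a share near that of all coding genes, and 0 lower after injury in wild type, 1 was higher and 2 were lower after injury in Silc1-/-, 2 were higher and 8 lower in Silc1-/- in sham, and 1 was higher and 6 were lower in Silc1-/- after injury. Il1b, the interleukin 1 beta gene, had 1, 5, 6 and 0, and was the extreme of the 21. Its log2 ratios were 2.66 for injury in wild type and -1.60 for genotype after injury, against list medians of -0.09 and -0.39. Rel, Nfkb2, Nfkb1, Tlr4 and Irf8 went the other way between the injured lists. The scaled ratio of the list was 0.971 for injury in wild type (0.741 to 1.28) and 0.750 between the injured lists (0.568 to 0.986).

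Markers of immune cells were counted beside these results. The 14 macrophage markers had 45 distinct summits in Silc1-/- injured, 53 in Silc1-/- sham, 70 in wild-type injured and 36 in wild-type sham, and the 8 neutrophil markers 23, 27, 47 and 24. For macrophage markers the scaled ratio was 1.21 for injury in wild type (0.798 to 1.86) and 0.787 between the injured lists (0.529 to 1.16), and for neutrophil markers 1.22 (0.730 to 2.08) and 0.599 (0.347 to 1.01). Of the macrophage markers 6 were higher and 1 was lower after injury in wild type, and 1 was higher and 5 were lower in Silc1-/- after injury. Of the neutrophil markers 3 were higher and 0 lower, and 0 higher and 5 lower. All coding genes had 16.8% higher and 10.2% lower for injury in wild type and 12.6% and 16.2% for genotype after injury. No list had a summit within 1 kb of the start of 11 of the 14 macrophage markers, Adgre1, Csf1r, Cd68 and Cx3cr1 among them, or of the neutrophil markers Elane, Mpo and Ly6g. Among the 8 neutrophil markers 1, 1, 5 and 2 had such a summit in Silc1-/- injured, Silc1-/- sham, wild-type injured and wild-type sham. Among the 14 macrophage markers 0, 2, 2 and 1 had one in that order. The shares of all coding genes were 47.6%, 53.0%, 54.1% and 48.4%. T cell markers had 24, 39, 40 and 30 distinct summits, with a ratio of 0.830 for injury in wild type (0.504 to 1.38) and 0.734 between the injured lists (0.424 to 1.25), and B cell markers 20, 19, 19 and 16. Endothelial markers had 21, 36, 26 and 14, Schwann cell and satellite glia markers 40, 53, 52 and 27, sensory neuron markers 42, 79, 49 and 34, fibroblast markers 8, 13, 12 and 4, and skeletal muscle markers 20, 18, 19 and 16. Scaled to list length, the macrophage, neutrophil, glia and fibroblast lists were each highest in wild-type injured, as the chemokine system genes were. Cx3cr1 is one of the macrophage markers and its window overlaps that of Ccr8, so those totals share some summits. The glia list had 43.4, 42.6, 46.0 and 38.4 scaled summits and the fibroblast list 8.67, 10.4, 10.6 and 5.69. The T cell, B cell and skeletal muscle lists were highest in wild-type sham, at 42.7, 22.8 and 22.8 scaled summits. The endothelial and sensory neuron lists were highest in Silc1-/- sham, at 28.9 and 63.4. The part of these cell types in the result was not tested.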

How the data were processed

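ATAC-seq was available for 12 libraries, 3 in each of 4 groups assigned by genotype and treatment. The authors deposited 1 list of summits per group, with a score that is −log10 of a p-value or of a q-value (the sources used here do not say which). Read filters, tool versions and whether libraries were pooled are likewise not given in these sources. Bowtie2, MACS2 and mm10 are named in the submitters' processing notes. Read totals are not given, so depth is unknown.

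From the lists, summits within 50 kb of genes (RefSeq, GRCm38.p6) were counted and multiplied by the mean list length over each list's own. Log2 ratios of these scaled counts used a pseudocount of 1, so differences at low counts are understated. Genes listed before the lowest summit of their chromosome (112 genes) were left out. Ratio intervals are exact binomial and the others Wilson or exact Poisson, and they treat summits as independent. Starts are those of RefSeq promoter windows, or either gene end where none was at hand (14 genes, among them Ccl2, Ccl7, Ccr10 and Ccl26). An item counted in the totals is not reported here.

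Named were Cxcr2, every cluster with at least 10 summits over the lists, every gene with a summit near its start, per comparison up to 6 genes in each direction with the largest ratios, and the highest-scoring loci of each class. Most remaining genes are listed for completeness. The members, the 12 gene lists and the rules were chosen with earlier results of these data known. Score floors of 5 and 10, equal list lengths, other distances, joining distances, pseudocounts and folds were tried. Counting steps were tested on simulated lists. Python 3.11.15, pandas 2.3.3, numpy 2.4.6, scipy 1.17.1 and matplotlib 3.10.9 were used.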

Additional observations from a re-analysis of the deposited data

Results flagged for a closer look

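In 4 of the 29 clusters the injured and sham lists differed by over 1.5-fold in opposite directions in the 2 genotypes. With 1 list per group the difference was not tested. Of all coding genes, 16.8% were higher after injury in wild type and 14.8% were lower after injury in Silc1-/-. How many were both was not counted, so these 4 cannot be called particular to this gene family. The log2 ratio of injured to sham in Silc1-/- minus that in wild type was -1.26 for Cxcr2 and Cxcr1 (3 summits in Silc1-/- injured, 7 in Silc1-/- sham, 8 in wild-type injured and 3 in wild-type sham). It was -2.73 for the Ccr1 array (1, 3, 10 and 1 in the same order), -2.32 for Ccl21d (0, 1, 2 and 0) and -2.85 for Ccr7 (0, 2, 2 and 0). The last 2 rest on 3 and 4 summits over all lists, and Ccl21d lies among near-identical copies.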

How the results depend on the processing

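No paired analysis was possible because each group has 1 deposited list, and for the same reason leaving out each replicate was not run. Of 698 values under alternatives, 560 stayed the same, 131 moved and 7 turned round. Over all 53 genes the scaled ratio ranged from 0.517 to 0.863 for genotype after injury, 0.818 to 0.993 for genotype in sham, 1.06 to 1.46 for injury in wild type and 0.758 to 1.04 for injury in Silc1-/-. The causes of the shifts below were not tested.

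All 7 reversals came with score floors. With scores of at least 10, the receptor ratio between the injured lists, Silc1-/- over wild type, was 1.04, the log2 ratios of the Ccr1 array were -0.25 for injury in wild type, 0.23 for injury in Silc1-/- (0.18 at a floor of 5) and 0.36 for genotype after injury, and the ratio of fibroblast markers for genotype in sham was 0.417. Genotype in sham for Cxcr4 was 0.92 at a floor of 5.

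Genes with at least 3 summits in the larger count, a rule added after the data were seen, are kept through their higher list, so those counts support nothing. Genes called higher after injury in wild type numbered 14 at a floor of 10, 11 past 2-fold and 13 with at least 3 summits in the larger count, and lower ones 0 at a floor of 10, 2 with equal lists, 6 with a pseudocount of 0.5 and 0 past 2-fold. The 14 and 11 are 26.4% and 20.8%, against 14.4% and 5.42% of all coding genes. For the lower ones, all coding genes had 2.6%, 11.3%, 15.9% and 3.55% in that order. After injury in Silc1-/-, higher ones were 3 within 10 kb, and lower ones 8 at a floor of 5, 6 at 10, 9 within 10 kb, 7 past 2-fold and 7 with at least 3 summits. The 3 higher genes are 5.66%, against 11.8% of all coding genes. The lower ones are 15.1%, 11.3%, 17% and 13.2% in that order, without the last. All coding genes had 13.9%, 17.8%, 15% and 4.94%. The share lower was thus near the background at a floor of 5 and within 10 kb, below it at 10 and above it past 2-fold. In sham, higher in Silc1-/- were 6 at a floor of 5, 4 at 10, 6 with equal lists, 6 past 2-fold and 1 with at least 3 summits, and lower 1 at a floor of 5, 2 at 10, 13 with equal lists, 5 within 100 kb and 1 past 2-fold. All coding genes had 13.3%, 8.94%, 9.68% and 6.85% higher in that order, without the last. They had 10.3%, 7.76%, 14.9%, 17.4% and 5.63% lower, and the 13 with equal lists are 24.5%. After injury, higher in Silc1-/- were 0 at a floor of 10 and 2 each within 10 kb, within 100 kb, past 2-fold and with at least 3 summits, and lower 10 at a floor of 10 and 14 past 2-fold. All coding genes had 3.49%, 12.0%, 11.8% and 4.86% higher in that order, without the last. The 10 lower genes are 18.9%, against 20.7% of all coding genes, so that share was not raised at this floor. The 14 are 26.4%, against 5.54%.

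Genes with a summit near the start were 1 (floor of 10) and 10 (within 2500 bases) in Silc1-/- injured, 4 (floor of 5), 1 (floor of 10) and 5 (equal lists) in Silc1-/- sham, 3 (floor of 10) in wild-type injured, and 3 (floor of 5) and 1 (floor of 10) in wild-type sham. The shares of all coding genes under these settings are not set beside these counts, so nothing is read from them. Loci of wild-type injured alone were 14 at a floor of 10 and 32 with equal lists, and loci of all lists 20 at a floor of 5, 11 at 10 and 19 when joined within 50 bases.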
